A study of Homo sapiens with 12 samples.

Results

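LNCaP prostate cancer cells transfected with miR-203 were compared with LNCaP cells transfected with miR-205. LNCaP is an established human line that depends on androgen and has the character of luminal prostate cells. The comparison takes 6 of the 12 arrays of the study, 3 labelled miR-203 and 3 labelled miR-205. It covers 11963 genes, each read by a probe set with exactly 1 gene symbol and, where a gene had several, by the one with the highest mean over the 12 arrays. Of these, 6821 were bright enough to be tested, meaning that they exceeded the median of the array on 3 or more of the 12 arrays. The other groups are 3 arrays of cells given a scramble microRNA, used to show which side had moved, and 3 arrays of cells given miR-130a. Both sets also entered the choice of probe sets, the brightness filter and the estimate of the spread. All 4 groups are therefore transfected cells of a single line, and the labels call the 3 arrays of a group biological replicates. The sources used here do not give the dose, the time after transfection or the microRNA level reached. All p-values refer to the spread between the cultures of these arrays.

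MicroRNAs are short RNAs that guide Argonaute proteins to messenger RNAs, mostly by pairing of the seed, bases 2 to 8, and lower the amount or the translation of those messages. miR-203 is abundant in skin and other stratified epithelia, where it is known for limiting the p63-dependent growth of progenitors. miR-205 is typical of basal epithelial cells, including those of the prostate, and is known for repressing the ZEB transcription factors. The labels name no arm, so the sequences below are those of the arms usually meant by these names. They are shown because the seeds decide which messages each RNA can pair with. They come from RefSeq on GRCh38.p14, with the seed in capitals. The first is encoded by MIR203A at chr14:104117469-104117490 on the plus strand and the second by MIR205 at chr1:209432166-209432187 on the plus strand.
hsa-miR-203a-3p: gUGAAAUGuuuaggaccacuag
hsa-miR-205-5p: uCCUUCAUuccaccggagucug
Both are 22 bases long. Position by position the seeds share 0 bases, and the whole sequences share 3. A full seed match in a message reads CATTTCA for the first and ATGAAGG for the second. Such matches were not searched, since transcript sequences were not used here.

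The values are log2 expression from 1 table with a common scale, with array medians of 2.76 to 2.78. Within a group, the correlation r across genes was 0.9958 to 0.9986, and between miR-203 and miR-205 arrays it was 0.9859 to 0.9893. Of 14 luminal prostate markers on the arrays, 12 lay above the array median on at least 1 array, against 1 of 7 basal, 1 of 8 neuroendocrine, 3 of 11 fibroblast and smooth muscle and 0 of 9 leukocyte and endothelial markers. The androgen receptor gene was not analysed here. GAPDH's 3′ minus 5′ probe set signal, a sign of RNA quality, was 0.74 to 0.80 log2 on miR-203 arrays and 0.60 to 0.73 on miR-205 arrays, which did not overlap. For ACTB these ranges overlapped, at 2.18 to 2.54 and 2.21 to 2.46. The part of RNA quality in the results below was not tested.

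The expression profiles differed in 2585 of the 6821 tested genes, or 37.9%, by limma's moderated test with Benjamini-Hochberg adjustment over all of them and a threshold of 0.05. With miR-203, 1432 genes were higher (21%) and 1153 were lower (16.9%) than with miR-205. Most differences were small, with a median size of 0.450 log2 among the genes that passed and a median standard error (SE) of 0.098. Only 225 genes (3.3%) passed with a difference of at least 2-fold. In that group lower genes outnumbered higher ones, with 144 lower (2.11%) and 81 higher (1.19%). At 4-fold and above the order turned, with 16 higher and 8 lower. A gene above the array median on none of a group's 3 arrays is called dim there, and its difference is then written as a bound (at least so many fold). Differences are log2 values of miR-203 minus miR-205 ± SE of the fit, with n = 3 arrays per group, unless another pair of groups is named.

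Scramble arrays showed on which side each large difference lay. Among the 81 genes at least 2-fold higher with miR-203, the scramble mean lay between both groups for 45, above both for 15 and below both for 21. For the 144 genes at least 2-fold lower, these numbers were 118, 24 and 2. The miR-203 mean was the one farther from scramble for 47 of the 81 and for 108 of the 144. Both comparisons with scramble use the same 3 scramble arrays, so their values are given side by side and no overlap between them is drawn.

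**Figure D1:**
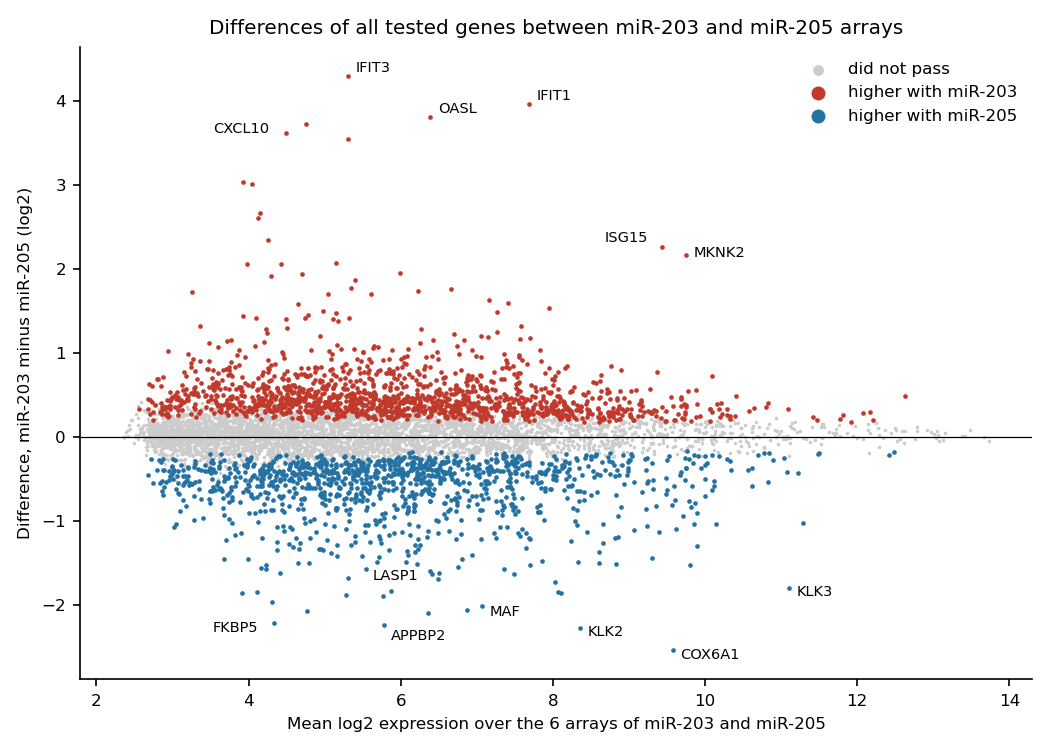
Each point is 1 of the 6821 tested genes, with its mean log2 expression over the 6 arrays on the horizontal axis and the difference miR-203 minus miR-205 (log2) on the vertical axis. Coloured points passed the threshold (1432 higher with miR-203, 1153 higher with miR-205). The farthest points above the line are interferon-induced genes such as IFIT3 at 4.30, and those below it include COX6A1 at -2.54 and KLK2 at -2.28.

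Genes of the interferon system made up the largest increases. Interferon-induced genes encode proteins that bind viral RNA, block its translation or degrade it, and cells switch them on through RNA sensors, interferons and a kinase cascade that ends in the transcription factors of the STAT and IRF families. Of 36 interferon-induced genes on the arrays 31 were tested, of which 24 were higher with miR-203, 0 were lower and 7 did not pass, beside 21% and 16.9% of all tested genes. Some members passed the filter on brightness only through the arrays where they are high, so these counts are a description. Among the 24 members dim in neither group, 21 were higher. The mean level of all 36, tested or not, was 4.94 to 4.97 on miR-203 arrays, 3.67 to 3.79 on miR-205 arrays and 3.71 to 3.74 on scramble arrays. The list's median difference was 0.82 (0.77 with 7 dim members at their bounds), against 0.033 over all tested genes. Against scramble its median was 0.63 with miR-203 and 0.00 with miR-205.

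IFIT3, which works with IFIT1 on viral RNA, read 7.74, 7.31 and 7.32 on the miR-203 arrays. Its values were 3.17, 3.17 and 3.13 on the miR-205 arrays and 3.04, 2.99 and 3.17 on the scramble arrays. The miR-203 arrays stood apart, while the miR-205 and scramble arrays overlapped, and the difference of 4.30 ± 0.12 (19.7-fold, adjusted p = 4.74e-11) was the largest of all. IFIT1, which binds foreign RNA ends, read 9.71, 9.55 and 9.76 with miR-203, 5.61, 5.77 and 5.76 with miR-205 and 4.98, 4.74 and 4.87 in scramble cells. Here all 3 groups were separate: the miR-203 arrays were higher than the miR-205 arrays by 3.96 ± 0.09, and the miR-205 arrays were higher than scramble by 0.85 with adjusted p = 1.98e-05. OASL, a member of the oligoadenylate synthetase family, read 8.48, 8.06 and 8.33 against 4.55, 4.60 and 4.31, a difference of 3.80 ± 0.13.

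Other effectors had the same order. IFIT2 was higher by 3.73 ± 0.16 and HERC5, the ligase that attaches ISG15 to other proteins, by 3.55 ± 0.11. ISG15 itself, a ubiquitin-like protein, was already bright in scramble cells. It read 10.65, 10.56 and 10.48 with miR-203, 8.29, 8.23 and 8.38 with miR-205 and 8.09, 8.30 and 8.46 in scramble cells. The miR-203 arrays lay above the miR-205 arrays, by about 4.8-fold, and above scramble, and the miR-205 and scramble arrays overlapped. RSAD2, which makes a chain-terminating nucleotide, was dim on all miR-205 arrays and was at least 6.89-fold higher with miR-203. OAS1, which makes the activator of RNase L, was higher by 2.66 ± 0.12 and PLAAT4, an interferon-inducible lipid acyltransferase, by 2.35 ± 0.11.

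Of the genes upstream of these effectors, 12 of 16 on the arrays were tested, with 5 higher, 1 lower and 6 that did not pass. This is 50% that passed, beside 37.9% of all genes. Without genes that have equal values in a group, which left 6, the counts were 3 and 0. The higher ones were the RNA sensors RIGI at 2.60 ± 0.13 and IFIH1 at 2.07 ± 0.19, and the transcription factors IRF9 at 1.15 ± 0.10, IRF7 at 0.74 ± 0.10 and IRF1 at 0.54 ± 0.11. IFIH1 has several probe sets, and their mean gave 1.06. The receptor kinase gene TYK2 was lower, at -0.45 ± 0.09. IRF7 differed in another way from the rest, because miR-203 arrays (4.58, 4.73 and 4.34) overlapped with scramble arrays (4.38, 4.14 and 4.38) and miR-205 arrays (3.82, 3.82 and 3.81) lay below both. IFNB1, which encodes interferon beta, read 2.74, 2.47 and 2.49 with miR-203 and 2.37, 2.36 and 2.36 with miR-205. It was dim in both groups, and no fold is given.

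Chemokines that draw T cells were dim in miR-205 and in scramble cells and bright with miR-203. CXCL10 read 6.28, 6.57 and 6.05 with miR-203 and 2.61, 2.67 and 2.76 with miR-205, which is at least 11.6-fold higher. CCL5 was at least 6.43-fold higher (5.59, 5.34 and 5.42 with miR-203) and CXCL11 at least 2.56-fold higher (4.35, 3.66 and 4.35). The other 7 of 10 chemokine genes on the arrays were too dim to be tested. The leukocyte and endothelial markers had mean levels of 2.38 to 2.42 with miR-203 and 2.37 to 2.38 with miR-205, near the lowest value of the table, 2.36.

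Genes that present peptides on class I molecules were higher in 9 of 12 tested cases and lower in 0, with a median of 0.32. This is 75% that passed, beside 37.9% of all genes, and 5 were higher when only the 6 arrays were fitted. HLA-E, a ligand of natural killer cell receptors, read 6.44, 6.33 and 6.26 with miR-203, 5.53, 5.57 and 5.74 with miR-205 and 5.93, 5.96 and 6.08 in scramble cells. Scramble lay between, and the difference was 0.73 ± 0.09 (0.46 for the mean of its probe sets). ERAP1, which trims peptides, read 3.98, 3.91 and 4.04 with miR-203 and 3.07, 3.21 and 3.39 with miR-205. Scramble arrays, at 4.25, 4.34 and 4.16, were above both. HLA-B was higher by 0.44 ± 0.09 and HLA-C by 0.34 ± 0.08. Class I genes are near-identical in sequence, so the share of each gene in these signals is uncertain.

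**Figure D2:**
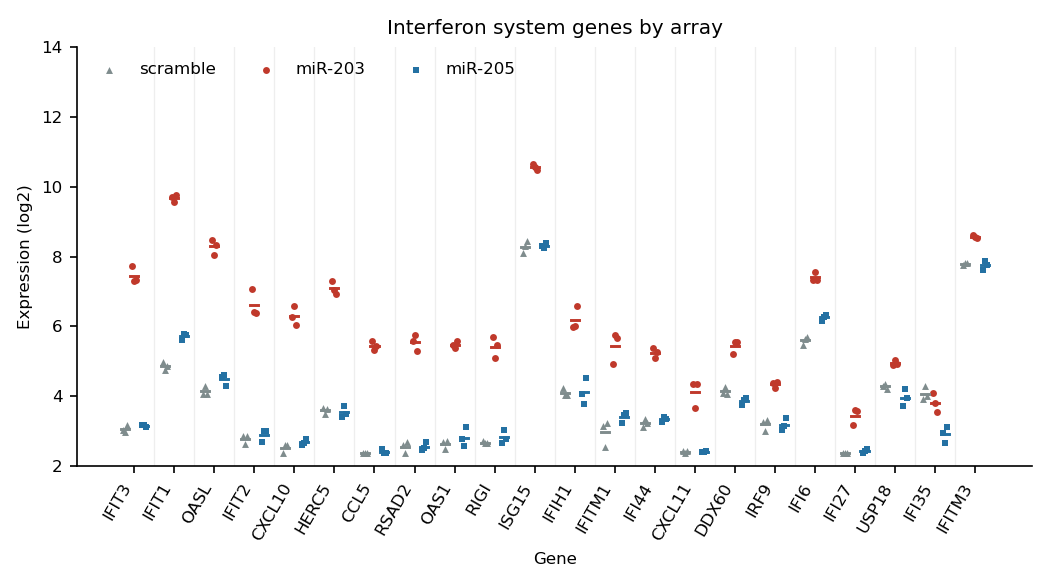
Log2 expression of interferon system genes on each of the 9 arrays of scramble, miR-203 and miR-205, with short bars at the group means of 3 arrays. For IFIT3 the miR-203 arrays sit between 7.31 and 7.74 and the other 6 arrays between 2.99 and 3.17. The same gap is seen at HERC5 and CXCL10, while ISG15 starts from a higher level.

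The promoters of these genes were read because interferon acts on them through a known element. The interferon-stimulated response element was searched as GAAA, any 2 bases and GAAA again, on both strands, in the 300 bases from 250 before to 50 after each RefSeq start (GRCh38.p14). A gene counted when any of its listed starts had a match. Of the 31 tested interferon-induced genes, 25 had a promoter in the table and 21 of these (84%) held a match, against 4.38% of the 27305 genes with a promoter. Among the 19 of the 25 that were higher with miR-203, 16 held one, and so did 5 of the 6 that did not pass. The following windows are shown for named genes with a match, in the direction of transcription, with the matched bases in capitals.
IFIT1: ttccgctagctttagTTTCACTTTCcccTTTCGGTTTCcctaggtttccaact
IFIT3: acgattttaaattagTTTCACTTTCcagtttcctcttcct
ISG15: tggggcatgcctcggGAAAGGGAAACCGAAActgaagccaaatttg
RSAD2: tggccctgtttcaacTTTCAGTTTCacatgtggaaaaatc
HERC5: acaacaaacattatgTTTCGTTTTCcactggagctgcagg
CXCL10: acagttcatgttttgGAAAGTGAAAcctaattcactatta
IFIT1 (chr10:89392492-89392544, plus strand) holds 2 matches, IFIT3 (chr10:89327860-89327899, plus) 1, ISG15 (chr1:1013369-1013414, plus) 2 that overlap, RSAD2 (chr2:6877617-6877656, plus) 1, HERC5 (chr4:88457030-88457069, plus) 1 and CXCL10 (chr4:76023694-76023733, minus) 1. In IFIT1, IFIT3, RSAD2 and HERC5 the element lies on the opposite strand and so reads TTTC first. A match describes these letters only and does not show binding.

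Androgen-induced genes were the clearest group on the other side. The androgen receptor, bound by hormone, switches on genes of prostate secretion, protein folding and lipid synthesis, and the kallikreins KLK2 and KLK3 are the best known of them in LNCaP cells. Of 27 such genes on the arrays 24 were tested, and 22 were lower with miR-203 than with miR-205, 1 was higher and 1 did not pass, beside 16.9% lower and 21% higher among all genes. The median difference was -0.78. Scramble cells lay between both groups: the mean level of the 27 genes was 6.19 to 6.26 with miR-203, 6.67 to 6.70 in scramble cells and 7.05 to 7.11 with miR-205. Against scramble, 17 of the 24 were lower and 1 higher with miR-203, while 14 were higher and 1 lower with miR-205. Among all tested genes, 18.9% were lower and 17.3% higher than scramble with miR-203. With miR-205, 11.3% were higher and 14.8% lower.

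KLK2, a secreted prostate protease, read 6.94, 7.43 and 7.29 with miR-203, 8.73, 8.89 and 8.84 in scramble cells and 9.51, 9.58 and 9.42 with miR-205. The 3 groups were separate, and the difference between the microRNAs was -2.28 ± 0.11 (4.85-fold lower with miR-203, adjusted p = 8.79e-09). KLK3, which encodes prostate-specific antigen, read 10.14, 10.34 and 10.15 with miR-203, 11.36, 11.48 and 11.50 in scramble cells and 12.06, 12.04 and 11.93 with miR-205. It had the same order, with a difference of -1.80 ± 0.08. The sequences of KLK2 and KLK3 are close, and probe sets could share signal between them.

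FKBP5, a chaperone partner of steroid receptors and a direct androgen target, was low with miR-203. It read 2.92, 3.20 and 3.55 there, 3.86, 3.73 and 4.06 in scramble cells and 5.50, 5.64 and 5.19 with miR-205, and the difference was -2.22 ± 0.15. The larger part of this distance lay on the miR-205 side, with a difference from scramble of 1.56 for miR-205 and -0.66 for miR-203. MAF, a leucine zipper transcription factor, also moved mainly with miR-205, where it was 1.67 above scramble (8.12, 8.03 and 8.07 against 6.53, 6.37 and 6.30). With miR-203 it read 6.02, 6.04 and 6.11, a difference of -2.02 ± 0.09 (-0.87 for the mean of its probe sets). ELL2, a transcription elongation factor, differed by -1.86 ± 0.17 (-0.94 for the mean of its probe sets). NDRG1, induced by androgen and by low oxygen, read 5.89, 5.63 and 5.39 against 7.37, 7.47 and 7.18, and its difference was -1.70 ± 0.11.

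The exception was ACP3, prostatic acid phosphatase. It read 7.86, 7.88 and 7.95 with miR-203, 7.05, 7.05 and 7.08 with miR-205 and 7.26, 7.22 and 7.34 in scramble cells, so its order was the reverse of that of KLK3, with a difference of 0.84 ± 0.07. Androgen is known to lower ACP3 in LNCaP cells, although it was listed and counted here among the androgen-induced genes. Of 19 tested cofactors of the receptor, 5 were higher, 1 lower and 13 did not pass, or 31.6% that passed beside 37.9% of all genes (3 higher without miR-203 replicate 3 or without miR-205 replicate 2). NCOA4, a coactivator and ferritin receptor, was higher by 0.65 ± 0.07. FKBP4, a cochaperone that helps the receptor bind hormone, was lower, at -0.66 ± 0.09 (8.37, 8.30 and 8.08 with miR-203 against 8.91, 8.94 and 8.88 with miR-205). Luminal prostate markers, which include KLK2 and KLK3, had a mean level of 6.43 to 6.52 with miR-203, 6.69 to 6.80 in scramble cells and 6.83 to 6.88 with miR-205. Of the 12 tested, 1 was higher, 5 were lower and 6 did not pass, with a median difference of -0.08, and KLK2 and KLK3 are among the lower ones.

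**Figure D3:**
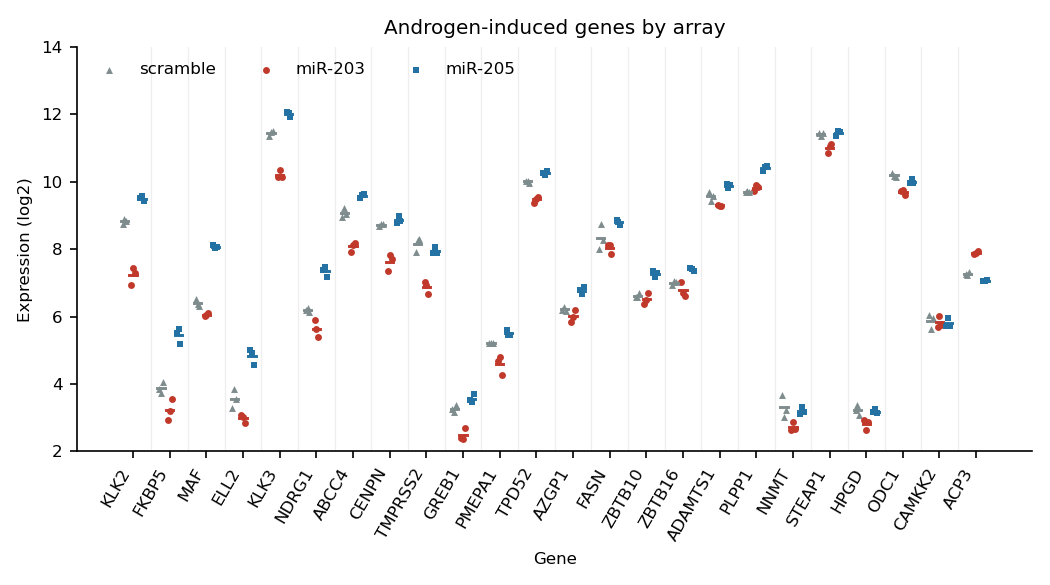
Log2 expression of the 24 tested androgen-induced genes on each array of scramble, miR-203 and miR-205, ordered by the difference, with bars at the means of 3 arrays. For KLK3 the miR-203 arrays sit between 10.14 and 10.34, scramble between 11.36 and 11.50 and miR-205 between 11.93 and 12.06. ACP3, at the right end, has the opposite order.

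Cell division genes were higher with miR-203 than with miR-205, yet in both groups they were lower than in scramble cells. Cyclin-dependent kinases drive cells from DNA replication into mitosis, and the genes for both phases are expressed only in cycling cells. In bulk samples, fewer cycling cells and less RNA per cell cannot be told apart. Of 45 mitosis and spindle genes tested, 30 were higher, 1 was lower and 14 did not pass, with a median of 0.63. This is 68.9% that passed, beside 37.9% of all tested genes (21% higher and 16.9% lower). The higher ones numbered 19 without the filter on brightness and 19 when only the 6 arrays were fitted. Of 41 DNA replication genes, 23 were higher and 0 were lower, with a median of 0.45, or 56.1% that passed. The mean level of the mitosis genes was 4.93 to 5.46 with miR-203, 4.41 to 4.86 with miR-205 and 5.68 to 5.89 in scramble cells. Against scramble, 30 of the 45 were lower with miR-203 and 41 with miR-205, with medians of -0.50 and -1.23. Among all tested genes, 18.9% were lower than scramble with miR-203 and 14.8% with miR-205.

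BUB1B, a spindle checkpoint kinase, read 5.90, 6.43 and 6.23 with miR-203, 4.89, 5.26 and 5.16 with miR-205 and 6.51, 6.42 and 6.24 in scramble cells. The miR-203 arrays overlapped with scramble and lay above the miR-205 arrays by 1.08 ± 0.13. CDC25B, the phosphatase that activates mitotic CDK1, was higher by 1.08 ± 0.13, and the mitotic cyclin gene CCNB2 by 1.06 ± 0.22. The miR-205 arrays of CCNB2 were spread widely (4.53, 5.61 and 5.38), as were those of PTTG1, which encodes securin (5.55, 6.40 and 6.11). Securin was higher with miR-203 by 0.92 ± 0.18. The only lower gene, CENPN, encodes a kinetochore protein and is also listed as androgen-induced. It read 7.34, 7.81 and 7.70 with miR-203, 8.77, 8.98 and 8.83 with miR-205 and 8.68, 8.74 and 8.76 in scramble cells. MKI67, the proliferation marker, differed by 0.04 ± 0.11 (adjusted p = 0.823) and differed from scramble by -0.58 with miR-203 and by -0.61 with miR-205.

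Among replication genes, MCM5, a subunit of the replicative helicase, read 5.39, 5.70 and 5.52 with miR-203, 3.94, 4.71 and 4.37 with miR-205 and 6.13, 6.08 and 5.73 in scramble cells. Its groups were separate, with a difference of 1.20 ± 0.16. TK1, thymidine kinase, was higher by 1.03 ± 0.15, TYMS, thymidylate synthase, by 0.73 ± 0.12 (0.37 for the mean of its probe sets) and the replication factor GINS1 by 0.68 ± 0.14. Of 18 tested regulators of G1 phase, 7 were higher and 1 was lower, or 44.4% that passed beside 37.9% of all genes. CCND1, cyclin D1, read 7.66, 7.43 and 7.49 with miR-203, 6.47, 6.70 and 6.58 with miR-205 and 7.24, 7.41 and 7.36 in scramble cells, a difference of 0.94 ± 0.10 that lay on the miR-205 side. WEE1, the kinase that holds CDK1 inactive, was higher by 0.94 ± 0.08, with its scramble mean above both groups. Its miR-203 arrays (6.35, 6.58 and 6.61) overlapped with scramble (6.62, 6.56 and 6.61), so this difference also lay on the miR-205 side. CDKN1A, which encodes the inhibitor p21, differed by 0.18 ± 0.12 and did not pass. MYC was lower, at -0.30 ± 0.10, and this call was lost without miR-203 replicate 1 (adjusted p = 0.0787) or 3 (0.0733), without miR-205 replicate 2 (0.13), with only the 6 arrays (0.0661), without the filter (0.0831) and with array weights (0.0514).

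**Figure D4:**
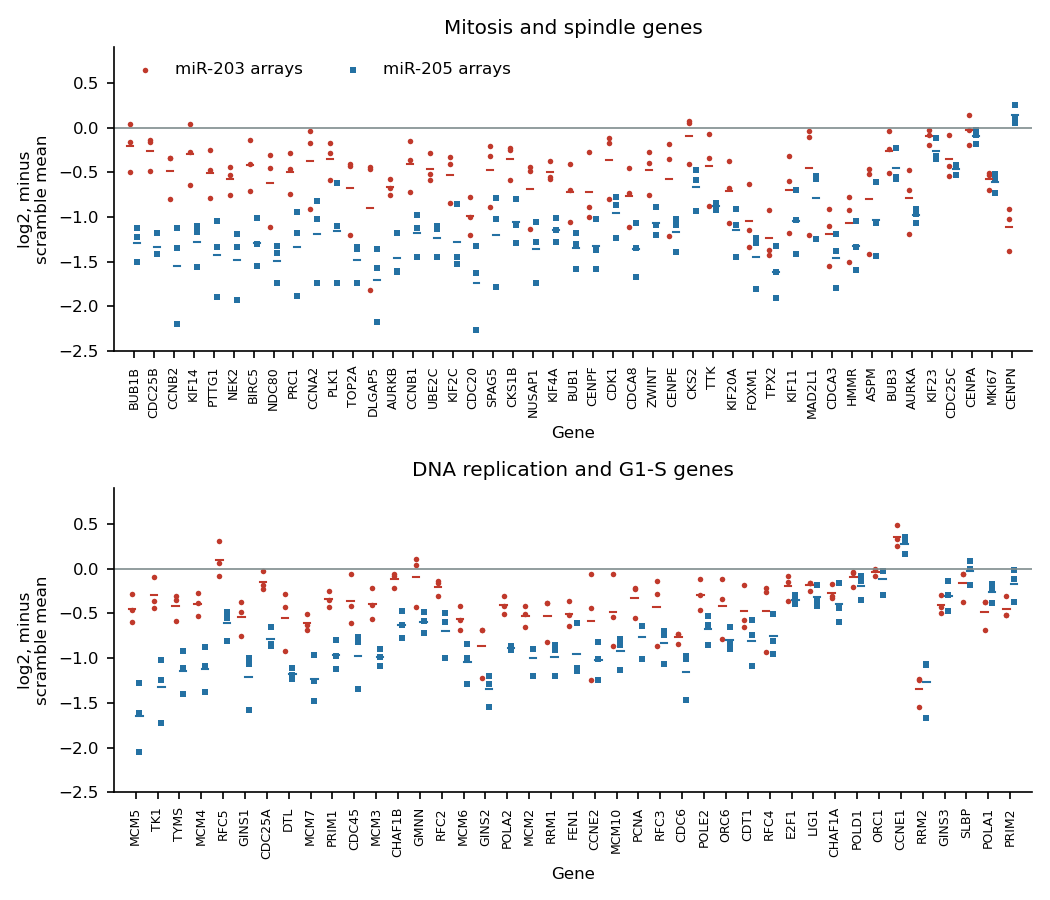
Log2 expression minus the scramble mean for mitosis and spindle genes (top) and DNA replication genes (bottom) on each miR-203 and miR-205 array, ordered by the difference between the groups, with bars at the means of 3 arrays. Nearly all points lie below the scramble line at 0, and the miR-205 arrays lie lower than the miR-203 arrays at most genes. CENPN is the exception at the right of the upper panel, with a difference of -1.24.

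Promoters of these genes carry elements typical of their phase. The cell cycle homology region, TTTGAA on both strands, is bound by the DREAM complex and its mitotic form and was present in 28 of 38 mitosis genes with a promoter (73.7%), against 18.2% of all genes. The E2F element, TTTCCCGC or TTTGGCGC on both strands, was present in 18 of 38 replication genes (47.4%) against 2.75% of all genes, and in 2 of 38 mitosis genes (5.26%). Among tested genes with a promoter, 4.99% held the E2F element, near the share of the mitosis genes. The cell cycle homology region was held by 13.4% of them. The cell cycle homology region was present in 10 of 10 mitosis genes with a promoter that did not pass and in 18 of 28 that passed. One window for each element is shown, with the match in capitals.
BUB1B: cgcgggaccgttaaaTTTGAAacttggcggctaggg
TYMS: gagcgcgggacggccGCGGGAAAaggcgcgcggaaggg
The BUB1B window is chr15:40161031-40161066 on the plus strand, and the TYMS window is chr18:657599-657636 on the plus strand with the E2F element on the opposite strand.

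Genes of cholesterol and fatty acid synthesis were lower with miR-203. These enzymes are induced together by the SREBP transcription factors, and androgen also raises many of them in prostate cells. Of 26 tested, 18 were lower and 0 were higher, with a median of -0.64, or 69.2% that passed beside 37.9% of all genes. The mean level was 6.58 to 6.69 with miR-203, 6.88 to 6.98 in scramble cells and 7.16 to 7.21 with miR-205. SQLE, squalene epoxidase, read 4.88, 4.91 and 5.08 with miR-203, 5.93, 6.21 and 5.75 in scramble cells and 6.83, 6.71 and 6.83 with miR-205. All 3 groups were separate, and the difference was -1.83 ± 0.11 (3.57-fold lower). Members differed in which side moved. ACAT2, the thiolase that makes acetoacetyl-CoA, was lower at -1.15 ± 0.11, and its miR-205 arrays (7.04, 7.08 and 7.06) overlapped with scramble (7.03, 7.09 and 6.77). For MSMO1, the methylsterol oxidase, it was the miR-203 arrays (8.23, 8.41 and 8.50) that overlapped with scramble (8.29, 8.20 and 8.24), with miR-205 arrays higher at 9.30, 9.27 and 9.40. SCAP, which escorts SREBP to the Golgi, differed by -0.88 ± 0.09, FADS2, a fatty acid desaturase, by -0.99 ± 0.12 and IDI1, which isomerises isopentenyl diphosphate, by -0.89 ± 0.08. The sterol response element, searched as TCACNCCAC on both strands, was found in 1 of 23 promoters of this list (4.35%), against 1.39% of all genes.

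The secretory pathway was lower as well, mostly through miR-203. Chaperones and disulphide isomerases of the endoplasmic reticulum fold secreted proteins, and the unfolded protein response raises them. Of 31 tested genes, 16 were lower and 2 higher (1 higher with the replicate block, and without miR-203 replicate 2 or miR-205 replicate 1). The median was -0.26, and 58.1% passed, beside 37.9% of all genes. Against scramble the medians were -0.38 with miR-203 and -0.06 with miR-205. PDIA3, a disulphide isomerase that also serves class I loading, read 8.84, 9.26 and 9.01 with miR-203, 10.59, 10.52 and 10.58 with miR-205 and 10.42, 10.50 and 10.49 in scramble cells. Its difference was -1.53 ± 0.09. SEC61B, a subunit of the translocation channel, read 8.53, 8.95 and 8.64 against 9.83, 9.71 and 9.77, with a difference of -1.06 ± 0.10. PDIA4, another isomerase, differed by -0.81 ± 0.09.

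The amino acid response run by the transcription factor ATF4 was low in both groups. Its 28 genes on the arrays had mean levels of 6.21 to 6.29 with miR-203, 6.05 to 6.12 with miR-205 and 6.92 to 7.01 in scramble cells. Between the microRNAs, 12 of 26 tested genes were higher with miR-203 and 2 were lower, with a median of 0.24. This is 53.8% that passed, beside 37.9% of all genes. CHAC1, which degrades glutathione, read 4.13, 3.89 and 3.60 with miR-203, 3.33, 3.29 and 2.9 with miR-205 and 5.05, 4.97 and 5.20 in scramble cells, a difference of 0.70 ± 0.14. CEBPG, a partner of ATF4, was higher by 0.64 ± 0.07. SLC7A1, a transporter of cationic amino acids, went the other way at -1.55 ± 0.12 (-0.50 for the mean of its probe sets), as did CTH, which makes cysteine, at -0.97 ± 0.19. Aminoacyl-tRNA synthetases, which charge tRNAs, were higher in 7 and lower in 3 of 16 cases, or 62.5% that passed (4 higher without miR-205 replicate 1). CARS1 was higher by 0.67 ± 0.09, whereas AARS1 read 7.85, 7.94 and 7.58 with miR-203 and 8.78, 8.89 and 8.72 with miR-205 with a difference of -1.01 ± 0.09.

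Outside these groups, the largest decreases with miR-203 were mostly its own distance from scramble. COX6A1, a subunit of cytochrome c oxidase, read 7.97, 8.65 and 8.28 with miR-203, 10.87, 10.88 and 10.79 with miR-205 and 10.77, 10.82 and 10.90 in scramble cells. The miR-205 and scramble arrays overlapped, and the difference of -2.54 ± 0.13 (5.84-fold) was the largest decrease. It stood alone among 30 respiratory chain genes, of which 7 were higher and 2 lower with a median of 0.08. This is 30% that passed, beside 37.9% of all genes, and 4 were higher without miR-203 replicate 2. The other lower one, COX7A2, differed by -0.53 ± 0.07. CREBL2, a leucine zipper protein of the CREB family, read 4.99, 5.56 and 5.40 against 7.27, 7.48 and 7.48 with miR-205 and 7.25, 7.46 and 7.32 in scramble cells, with a difference of -2.09 ± 0.13. CMTM6, which keeps PD-L1 at the cell surface, differed by -1.85 ± 0.13, TXLNA, a syntaxin-binding protein, by -1.86 ± 0.14 and GM2A, the cofactor of ganglioside breakdown, by -1.89 ± 0.14 (-0.81 for the mean of its probe sets). In these 3 genes too the miR-205 values did not pass against scramble.

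Another set lay on both sides of scramble. APPBP2, a substrate receptor of a ubiquitin ligase, read 4.51, 4.83 and 4.63 with miR-203, 6.20, 6.38 and 6.06 in scramble cells and 6.89, 6.87 and 6.93 with miR-205. Its difference was -2.24 ± 0.10 (-1.28 for the mean of its probe sets). KIF5C, a kinesin heavy chain, differed by -2.07 ± 0.08 and NDRG3 by -2.07 ± 0.09. BNIP3L, a receptor for the removal of mitochondria, differed by -1.86 ± 0.10 (-1.09 for the mean of its probe sets). Others differed mainly through miR-205. CDC42EP3, a CDC42 effector that binds septins, read 6.70, 6.63 and 6.81 with miR-205, 5.31, 5.11 and 5.20 in scramble cells and 4.63, 4.90 and 4.91 with miR-203. SOCS2, a feedback inhibitor of growth hormone signalling, read 5.26, 5.25 and 5.38 with miR-205 and 3.08, 3.45 and 3.45 with miR-203, with scramble cells at 4.02, 3.95 and 3.93.

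Among genes higher with miR-203 and outside the interferon system, 2 kinase genes had the largest differences. MKNK2, which phosphorylates the cap-binding protein eIF4E, read 10.83, 10.82 and 10.84 with miR-203, 8.70, 8.50 and 8.79 with miR-205 and 10.08, 9.84 and 9.98 in scramble cells. The 3 groups were separate and differed by 2.16 ± 0.08 between the microRNAs. RPS6KB2, a ribosomal S6 kinase, read 5.09, 5.06 and 4.86 with miR-203, 2.74, 3.10 and 3.01 with miR-205 and 4.74, 4.51 and 4.87 in scramble cells. Its difference of 2.05 ± 0.11 lay on the miR-205 side, since miR-203 arrays overlapped with scramble (adjusted p = 0.0509 against it).

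In growth signalling, of 12 tested genes of the RAS to ERK cascade 3 were higher and 3 lower. This is 50% that passed, beside 37.9% of all genes. HRAS read 7.13, 6.86 and 6.71 with miR-203, 5.54, 5.60 and 5.73 with miR-205 and 7.07, 7.24 and 7.25 in scramble cells, so miR-205 arrays stood apart with a difference of 1.28 ± 0.11. GRB2, the adaptor that brings SOS to receptors, was higher by 0.96 ± 0.08, and SHC1, another adaptor, was lower, at -0.76 ± 0.09. Of 20 genes of the PI3K and mTOR pathway 4 were higher and 3 lower, or 35% that passed beside 37.9% of all genes. They included the mTOR inhibitor DEPTOR at 1.29 ± 0.14, the translation repressor EIF4EBP1 at 0.96 ± 0.09, the catalytic subunit PIK3CB at 0.91 ± 0.09 and the regulatory subunit PIK3R3 at -0.62 ± 0.07 (-0.29 for the mean of its probe sets).

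Apoptosis regulators were higher in 11 of 20 tested cases and lower in 2, with a median of 0.27 (7 higher without miR-203 replicate 2). This is 65% that passed, beside 37.9% of all genes. PMAIP1, a killer protein of the BCL2 family also known as NOXA, read 8.23, 7.78 and 8.04 with miR-203, 6.66, 6.34 and 6.58 with miR-205 and 7.06, 6.90 and 7.16 in scramble cells. The groups were separate, and the difference was 1.49 ± 0.12. BCL2L1, which encodes the survival protein BCL-XL, was lower, reading 3.80, 3.69 and 3.61 with miR-203 and 4.95, 4.94 and 5.25 with miR-205, at -1.35 ± 0.12. The death receptor gene TNFRSF10B was lower at -1.21 ± 0.07, with miR-205 arrays (8.38, 8.30 and 8.21) above scramble (7.37, 7.26 and 7.39). Of 22 p53 targets 6 were higher and 3 lower, PMAIP1 and TNFRSF10B among them, or 40.9% that passed beside 37.9% of all genes.

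In TGF-beta and BMP signalling 6 of 20 tested genes were higher and 3 lower, or 45% that passed beside 37.9% of all genes. The higher ones numbered 3 without any 1 of the miR-205 arrays or without the filter. BAMBI, a decoy receptor, read 8.74, 8.74 and 8.66 with miR-203, 7.27, 7.26 and 7.01 with miR-205 and 6.84, 6.80 and 7.01 in scramble cells, a difference of 1.54 ± 0.09 that lay on the miR-203 side. ID2, a BMP-induced inhibitor of differentiation factors, was lower at -1.64 ± 0.24, with wide spread on the arrays of miR-203 (5.96, 5.19 and 5.60) and miR-205 (7.57, 6.73 and 7.37).

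Among structural genes, those of actin and focal adhesion were more often lower than higher with miR-203. Of 36 tested, 14 were lower and 5 higher, with a median of -0.19. This is 52.8% that passed, beside 37.9% of all genes. The higher ones numbered 1 without miR-205 replicate 1, 2 without miR-203 replicate 1 or 2, 3 without miR-205 replicate 2 or 3, and in the 6 arrays 1, or 2 with the replicate block. TPM1, a tropomyosin, read 6.93, 7.15 and 7.27 against 8.57, 8.58 and 8.64, a difference of -1.49 ± 0.09 (-0.84 for the mean of its probe sets). PFN2, a profilin, differed by -1.14 ± 0.08. Of 20 epithelial junction genes, 7 were lower and 3 higher (1 higher without miR-205 replicate 1), or 50% that passed. Their median was only -0.04, with 11 negative and 9 positive differences. TJP1, the tight junction scaffold ZO-1, read 7.70, 8.06 and 7.79 with miR-203, 9.35, 9.39 and 9.34 with miR-205 and 8.54, 8.47 and 8.32 in scramble cells, and the desmosomal cadherin gene DSG2 read 7.75, 8.08 and 8.25 against 9.32, 9.34 and 9.22. Both lay on either side of scramble, with differences of -1.51 ± 0.09 and -1.26 ± 0.10. OCLN, occludin, had the other direction at 0.81 ± 0.12.

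Described targets of each microRNA were examined as lists written from general knowledge. A target that its own microRNA represses would be lower on that microRNA's arrays. SMAD4, VEGFA, SRC and BCL2L2 are on both lists and are counted in each. For these genes the difference between the groups cannot show repression by either microRNA. Of 18 tested miR-203 targets, 3 were lower with miR-203, 3 were higher and 12 did not pass, or 33.3% that passed beside 37.9% of all genes. LASP1, an actin-binding protein, read 5.36, 5.79 and 5.60 with miR-203, 7.05, 7.31 and 7.20 with miR-205 and 7.51, 7.51 and 7.60 in scramble cells, with a difference of -1.60 ± 0.10. PRKCA, protein kinase C alpha, was lower, at -0.51 ± 0.12. SNAI2, a repressor of epithelial genes, was dim with miR-203 and at least 1.27-fold lower. Its call was lost with only the 6 arrays (adjusted p = 0.0589; 0.0834 with the replicate block in them), without the filter (0.075), without miR-203 replicate 1 (0.0573) and without miR-205 replicate 1 (0.07). The survival factor gene BIRC5, also a mitosis gene, was higher by 0.87 ± 0.15 (0.47 for the mean of its probe sets). Both groups lay below scramble for BIRC5, with differences of -0.42 for miR-203 and -1.29 for miR-205. RAN, a nuclear transport GTPase, was higher by 0.32 ± 0.06 in its brightest probe set and lower in the one of largest variance, at -0.29. SMAD4 was higher by 0.35 ± 0.11, and it did not pass in a fit of only the 6 arrays (adjusted p = 0.0515; 0.0542 with the replicate block), without the filter (0.0914), without miR-203 replicate 2 or 3 (0.0999 and 0.103) or without miR-205 replicate 1, 2 or 3 (0.0613, 0.0726 and 0.0603). ABL1 differed by -0.17 ± 0.12, CKAP2 by -0.36 ± 0.13 and VEGFA by -0.01 ± 0.07, none of which passed. VEGFA lay below scramble in both groups, with differences of -0.52 for miR-203 and -0.51 for miR-205.

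Of 23 tested miR-205 targets, 9 were higher with miR-203, which is lower with miR-205, 4 had the other direction and 10 did not pass, or 56.5% that passed beside 37.9% of all genes (5 higher without miR-205 replicate 2 or 3, and 5 without the filter). Being higher with miR-203 did not always mean a level under scramble with miR-205. MED1, a Mediator subunit, was higher with miR-203 by 0.48 ± 0.14 but was 0.88 above scramble with miR-205, and E2F5, a transcription factor, was higher by 0.37 ± 0.10 (0.18 for the mean of its probe sets) with both groups' means above scramble. MED1 did not pass without miR-203 replicate 1 or 3 or miR-205 replicate 2 or 3, without the filter or with array weights, and E2F5 did not pass without miR-203 replicate 3 or miR-205 replicate 1 or 2 or with only the 6 arrays. YAP1, the effector of the Hippo pathway, read 3.11, 2.95 and 3.56 with miR-205, 4.81, 4.47 and 4.67 with miR-203 and 3.91, 4.14 and 4.13 in scramble cells. The 3 groups were separate, and the difference was 1.44 ± 0.14. ERBB3, a receptor of the EGFR family, read 7.07, 7.19 and 7.22 with miR-205 and 8.03, 7.84 and 7.88 with miR-203, a difference of 0.76 ± 0.09 (0.40 for the mean of its probe sets). Scramble arrays, at 7.30, 7.47 and 7.37, were closer to miR-205, and miR-205 against scramble did not pass (adjusted p = 0.0945). PHC2, a Polycomb protein, was higher with miR-203 by 0.60 ± 0.09 and the small GTPase gene RAP2B by 0.31 ± 0.07 (0.15 for the mean of its probe sets). CENPF, also a mitosis gene, was higher by 0.61 ± 0.17, a call lost without miR-205 replicate 3 (adjusted p = 0.0625), with only the 6 arrays (0.0783) and without the filter (0.0715); the mean of its probe sets gave 0.22 and the fit without miR-203 replicate 2 gave 0.38. NOTCH2 read 5.95, 6.16 and 6.08 with miR-205, above both miR-203 (5.29, 5.33 and 5.49) and scramble (5.63, 5.58 and 5.60). LPCAT1, a lipid acyltransferase, was lower with miR-203, at -0.55 ± 0.10, with both microRNAs below scramble. PTPRM, a receptor phosphatase, was lower with miR-203 at -0.57 ± 0.08, and so was YES1, a SRC family kinase, at -0.60 ± 0.14. ERBB2 differed by -0.05 ± 0.10, E2F1 by 0.15 ± 0.13 and RB1 by -0.23 ± 0.12, and these did not pass. ERBB2 lay below scramble in both groups, with differences of -0.37 for miR-203 and -0.32 for miR-205.

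**Figure D5:**
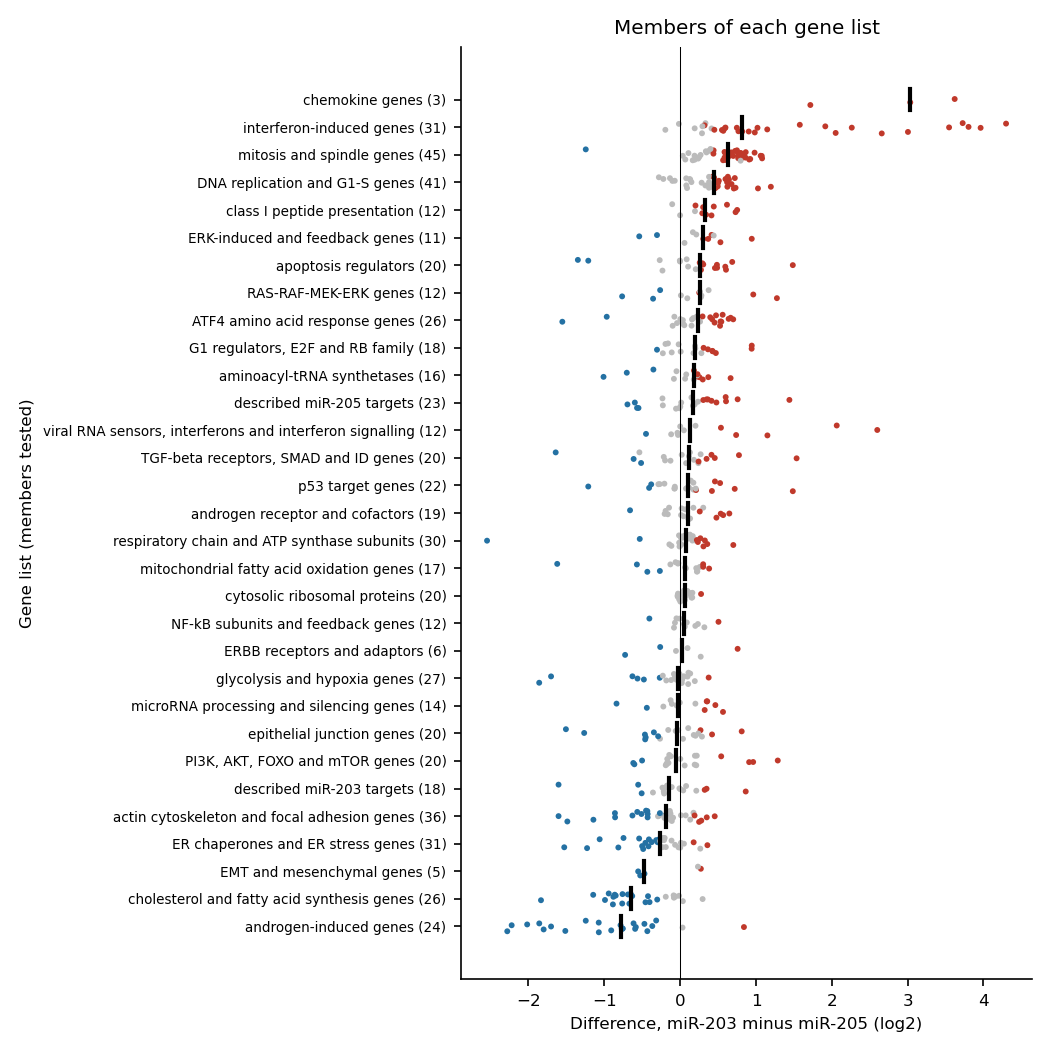
Difference miR-203 minus miR-205 (log2) of each tested member of the 31 gene lists, ordered by list median (black bars), with the number tested in brackets. Red points were higher and blue points lower with miR-203 past the threshold, and grey points did not pass. Chemokine genes (3 tested, median 3.03, or 2.69 at their bounds), interferon-induced genes (0.82) and mitosis genes (0.63) lie to the right. Androgen-induced genes (-0.78) and cholesterol synthesis genes (-0.64) lie to the left. The other medians lie between -0.47 (mesenchymal genes) and 0.45 (DNA replication genes), most of them near 0.

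The remaining lists are given by their counts, beside the 37.9% that passed among all genes. Of 17 mitochondrial fatty acid oxidation genes 3 were higher and 4 lower, or 41.2% that passed (7 higher with array weights). CPT1A, which admits fatty acids to mitochondria, was the largest at -1.62 ± 0.08 (-0.45 for the mean of its probe sets). It read 5.63, 5.86 and 5.61 with miR-203 and 7.34, 7.31 and 7.31 with miR-205. Glycolysis and hypoxia genes had 1 higher (0 without miR-203 replicate 2 or miR-205 replicate 1 or 3) and 6 lower of 27. Their median was -0.02, and 25.9% passed, below the 37.9% of all genes. Among the lower were the mitophagy receptor gene BNIP3L at -1.86 ± 0.10 and NDRG1, also on the androgen-induced list, at -1.70 ± 0.11. HIF1A, the oxygen-regulated transcription factor, was at -0.48 ± 0.09 and GPI, a glycolytic isomerase, at -0.63 ± 0.09. ERBB receptors and adaptors had 1 higher (2 without miR-205 replicate 3) and 2 lower of 6 (1 lower without the filter), or 50% that passed. ERK-induced genes had 5 higher and 2 lower of 11, or 63.6% that passed (3 higher with the mean of the probe sets, and 1 lower without miR-203 replicate 1 or 3 or miR-205 replicate 2). Among the higher was EGR1, an immediate early factor that was dim with miR-205 and at least 1.38-fold higher with miR-203. Mesenchymal genes had 1 higher and 3 lower of 5, or 80% that passed. The higher one, VIM, which encodes vimentin, was at 0.27 and did not pass without any 1 of the miR-203 or miR-205 arrays, nor with the replicate block over 12 arrays (adjusted p = 0.0617). The lower ones included fibronectin, FN1, at -0.47 ± 0.08 and TWIST1 at -0.53 ± 0.14. NF-kB subunits and feedback genes had 1 higher and 1 lower of 12, or 16.7% that passed, below the 37.9% of all genes. Cytosolic ribosomal proteins had 1 higher and 0 lower of 20, the least of the lists, with RPL19 at 0.28 ± 0.07. Genes that make or use microRNAs had 5 higher and 2 lower of 14, or 50% that passed. The higher ones numbered 3 without miR-203 replicate 1 or 2 or miR-205 replicate 2 or 3. They numbered 2 without miR-205 replicate 1 or without the filter. DICER1, which cuts microRNA precursors, differed by -0.22 ± 0.12 and did not pass. Its level was above scramble in both groups, by 0.54 with miR-203 and 0.76 with miR-205.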

How the data were processed

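Total RNA of 12 LNCaP cultures was measured on expression arrays, 3 in each of 4 groups. The authors deposited 1 table of log2 values for 22277 probe sets. The submitters' processing notes name R 2.9.0, RMA and limma, with no role or order. The annotation behind the table is not stated. Symbols came from the platform annotation: 19070 probe sets have 1 symbol, 1043 several and 2164 none. Of the first, 19058 were found in RefSeq's gene table and 0 changed their symbol.

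A model of 4 group means over 12 arrays was fitted to the deposited values with limma 3.58.1 in R 4.3.3 (lmFit and eBayes, with 8 residual degrees of freedom and 4.84 from the prior), and the contrast miR-203 minus miR-205 was adjusted by Benjamini-Hochberg over 6821 genes. An exact permutation of 3 arrays against 3 cannot go below p = 0.1, so single genes rest on this fit. For a dim gene's bound, each dim array's value was raised to the array median where it lay below it, and the brighter group's mean was set against the mean of these. The number of arrays limits the precision. The procedure was tested on simulated data.

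Members and gene lists were chosen with earlier results of these data known. Named genes are the 15 largest differences in each direction without overlap between arrays, up to 6 of each list past the threshold, the described targets, 7 fixed genes where measured, and 6 genes on opposite sides of scramble. The text names a part of them.

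Same-numbered arrays of miR-203 and miR-205 deviated together from their group means (r = 0.171, 0.105 and 0.313). For arrays of other numbers r was at most 0.096, 0.018 and -0.089. By this check the numbers may pair these groups, although the labels do not say what they share. Same-numbered miR-130a arrays also exceeded other numbers against both groups, at r = 0.028 to 0.097. The main counts and p-values come from the fit without this pairing. Alternatives covered scaling, filter, probe set choice, arrays in the fit, this pairing, array weights, an intensity trend, equal values and each miR-203, miR-205 and scramble array left out; miR-130a arrays were not left out.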

Additional observations from a re-analysis of the deposited data

Results flagged for a closer look

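For 172 of the 6821 tested genes the 3 miR-203 arrays lay on one side of all 3 scramble arrays and the 3 miR-205 arrays on the other. All 3 comparisons between these groups passed in limma's test, with 46 genes higher and 126 lower with miR-203 than with miR-205. The 6 genes given here are those of the 172 whose smaller distance from scramble was largest. MKNK2 differed by 2.16 ± 0.08 (miR-203 minus miR-205, log2), with 0.86 above scramble for miR-203 and -1.30 for miR-205. SQLE differed by -1.83 ± 0.11, with -1.0 and 0.83 against scramble, KLK2 by -2.28 ± 0.11, with -1.60 and 0.68, and BNIP3L by -1.86 ± 0.10, with -1.12 and 0.74. KCNMA1, a potassium channel gene, differed by -1.50 ± 0.10, with -0.71 and 0.78, and TTC39A by -1.63 ± 0.10, with -0.95 and 0.68. The mean of all probe sets gave -0.65 for KCNMA1 and -0.55 for TTC39A. Comparisons with scramble share its 3 arrays.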

How the results depend on the processing

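With the replicate block (the paired fit) 1426 genes were higher and 1157 lower over 12 arrays, and 1211 and 1026 over the 6 arrays. Of the 2585 calls, 2489 were shared with the first and 2133 with the second. The block ended the calls of SNAI2, SMAD4 and VIM and moved the actin and chaperone counts as given above, moved 4 other list counts of 0 or 1 by 1, and changed no other call in the text. Leaving out 1 array gave 1091 (without miR-205 replicate 1) to 1452 genes higher and 1016 to 1188 lower. Of the values for the main counts and the 5 leading lists, 260 stayed within a set tolerance, 8 moved and 0 reversed. The tolerance was wide for counts: 1091 genes higher, against 1432 in the main fit, counted as unmoved. At adjusted p under 0.01, chosen after seeing the data, 890 genes were higher. The interferon median was 0.67 without the filter, 1.00 with the stricter one and 0.94 without genes with equal values. Mitosis genes higher numbered 19 without the filter, where more genes are tested, and 19 with only the 6 arrays. The cholesterol median was -0.49 for the probe set of largest variance and -0.41 for the mean of the probe sets. With the former, RAN (-0.29) and UBE3A (-0.11) changed sign; the cause was not tested. Of 183 named genes that passed, 32 lost their call under at least 1 setting other than the stricter threshold. Among 100 genes with a difference of at least 1 log2 and another bright probe set, all others had the same sign in 97; among all 931 called genes with another bright probe set, in 769.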
